A study of Mus musculus with 4 samples.

Results

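The interleukin-2 (IL-2) receptor, JAK and STAT5 chain was followed here through 10 genes on a mouse expression array: the cytokine Il2, the receptor chains Il2ra, Il2rb, Il2rg and Il15ra, the kinases Jak1 and Jak3, the transcription factors Stat5a and Stat5b, and the phosphatase Ptpn2. Members were taken by the gene name printed for each non-control spot, whatever their signal, which gave 20 probes of 56310 usable probes and 10 gene names of 36876. All 20 had a single spot, and all 20 were well above background on all 4 arrays, so none was lost to the filter on dim probes.

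The arrays measured total RNA of regulatory T (Treg) cells made in culture, 2 arrays labelled Control, from Junbfl/fl mice, and 2 labelled Junbfl/flCd4-Cre. Both genotypes are on the C57BL/6 strain and both carry the floxed Junb allele, the gene of an AP-1 transcription factor. They differ by the Cre recombinase driven by the Cd4 promoter, which deletes floxed alleles in T cells from the thymus onward. Naive CD4+ cells (CD62L high, CD44 low, CD25 negative) of either genotype were kept for 3 days with plate-bound anti-CD3 at 1 μg/ml, anti-CD28 at 0.5 μg/ml, anti-IFN-γ and anti-IL-4 at 5 μg/ml each and recombinant human TGF-β1 at 5 ng/ml. No IL-2 is named among the additions, the age of the mice is not given, and whether the 2 arrays of each genotype stand for different mice, different cultures or 1 RNA is not in the labels. The p-values are thus set by array-to-array spread, part or all of which may be technical. The series title names the sensitivity of these cells to IL-2 as its subject, which is the question that the comparison of this chain between genotypes addresses.

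IL-2 is made by activated T cells and binds a receptor of 3 chains. The α chain (Il2ra, CD25) raises the affinity, and the β chain (Il2rb) and the common γ chain (Il2rg) carry JAK1 and JAK3, which phosphorylate STAT5A and STAT5B. Treg cells depend on this signal, hold much CD25 and make little IL-2, and phosphorylated STAT5 acts on genes such as Foxp3, Cish and Il2ra itself. Il15ra presents IL-15 to the same β and γ chains, and Ptpn2 encodes a phosphatase that removes phosphate from JAK1, JAK3 and STAT5. An array reads the RNA of these genes and not phosphorylation.

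The targeted gene goes partly against a label. A Junb probe at chr8:87501881-87501940 had processed signals of 47.2 and 31.7 intensity units on the Control arrays and was not well above background on either Junbfl/flCd4-Cre array (4.11 and 1.47), at least 5.71-fold lower (limma adjusted p = 0.0396). The bright Junb probe at chr8:87500843-87500902 read 9791 and 9072 against 1053 and 10078, so the array labelled Junbfl/flCd4-Cre and numbered 2 stood at the Control level there. Genotype differences are given by the arrays' labels throughout. Without that array the brightest Il2ra probe was at −2.14 on the log2 scale, beside −1.67 with all arrays, and without Junbfl/flCd4-Cre replicate 1 at −1.21. Signals are given below in the same units, and differences on the log2 scale as Junbfl/flCd4-Cre minus Control after scaling to each array's 75th percentile, tested with limma.

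The oligos that carry the main readings are shown first, since several of the results below turn on which stretch of a gene a probe reads. Positions are those of the files on mouse build mm9. Exon or UTR positions of probes were not worked out here, because no annotation of that build was used. The Il2 oligo and the brightest Il2ra oligo are among the 3 probes with the lowest differences of the members, the Il15ra pair gave unlike readings from 1 gene, and the Jak3 oligo is the probe that the files tie to RefSeq transcripts of Jak3 alone. Capitals mark the alternating T and G run of the third Il15ra probe, and only part is given of that probe and of the Il2ra probe.
Il2 probe 2 (chr3:37024765-37024824): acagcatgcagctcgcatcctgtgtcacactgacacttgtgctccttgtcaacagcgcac
Il2ra probe 1, bases 1 to 30 (chr2:11614744-11614803): gtggcttctgtttgatctctctcaatgata
Il15ra probe 2 (chr2:11654809-11654868): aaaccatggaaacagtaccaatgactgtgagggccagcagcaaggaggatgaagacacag
Il15ra probe 3, bases 24 to 53 (chr2:11655416-11655475): tatatgtaTGTGTGTGTGTGTGTGtatgta
Jak3 probe 2 (chr8:74210801-74210860): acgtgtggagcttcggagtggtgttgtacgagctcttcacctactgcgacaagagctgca

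None of the 10 genes passed the test for a genotype difference, with 0 of 20 probes called by limma at an adjusted p under 0.05, against 6.78% of all 33606 tested probes (5.53% higher and 1.25% lower). The smallest adjusted p among the members was 0.0531. At an unadjusted p under 0.05, 5 of the 20 member probes were counted, 4 with a lower and 1 with a higher level on the Junbfl/flCd4-Cre arrays, where 38.2% of all tested probes were under that value (18.4% lower and 19.8% higher). The 2 groups did not overlap for 16 of the 20 probes, 10 lower and 6 higher, beside 72.2% of all tested probes (37.8% lower and 34.4% higher). The 5 of 20 is a smaller share than over the whole array. The counts without overlap are not far from the shares of the whole array, and these 20 probes read only 10 genes. In the brightest quintile of tested probes, which holds 9 of the 20, 78.3% had a negative difference. None of these counts is read as a result about the members. The median difference was −0.24 on the log2 scale over the 20 probes, beside −0.01 over all tested probes, and −0.07 over the brightest probe of each gene. An exact permutation test of 2 arrays against 2 cannot give a two-sided p below 0.333.

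**Figure D1:**
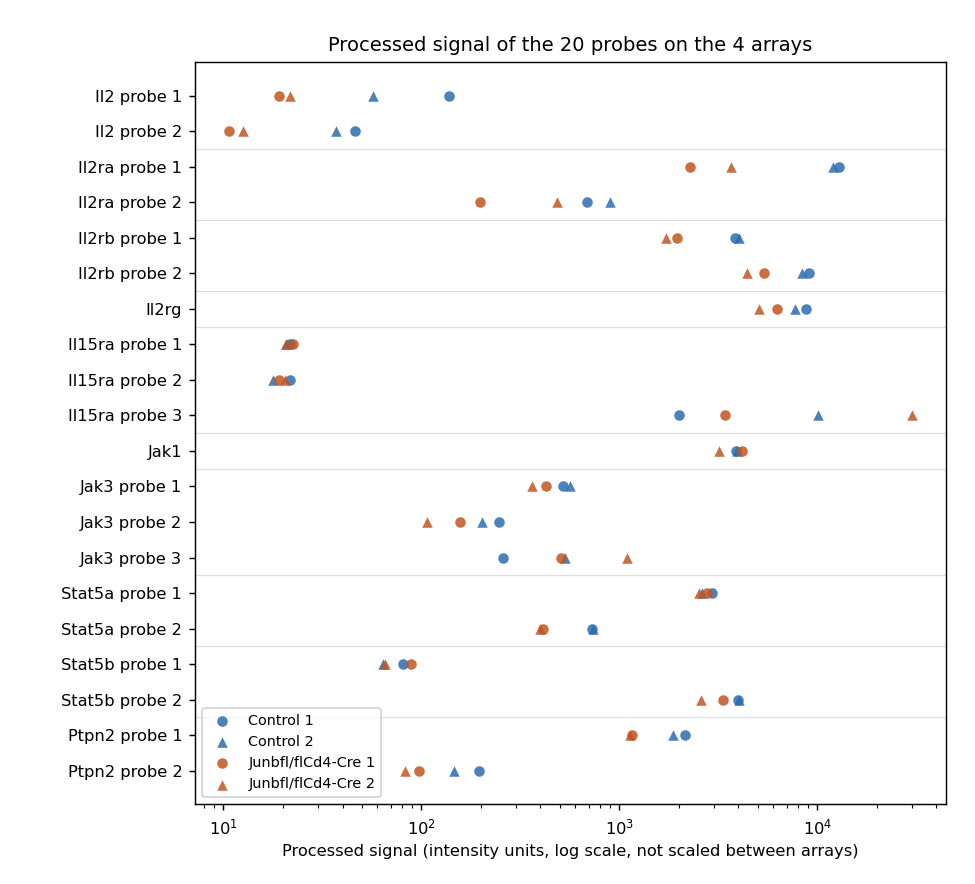
Processed signal of each of the 20 probes (rows, by role in the chain) on the 4 arrays, on a log axis in intensity units before scaling between arrays; circles are arrays numbered 1, triangles arrays numbered 2, blue Control and orange Junbfl/flCd4-Cre. Il2ra probe 1 stands at 12037 or more on the Control arrays and at 3668 or less on the others, while Il15ra probe 3 is higher on the arrays numbered 2 in both genotypes.

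The ligand had low signals in both genotypes. Il2 probe 1 read 138 and 56.9 on the Control arrays and 19.1 and 21.8 on the Junbfl/flCd4-Cre arrays. The Control arrays were both higher but lay 1.21 apart on the log2 scale. Scaled to each array's 75th percentile, the difference was −1.69 ± 0.47 (SE, n = 2 arrays per genotype, 95% interval −2.98 to −0.39, limma adjusted p = 0.0905). Il2 probe 2 read 46.1 and 37.0 on the Control arrays against 10.7 and 12.6. Again both Control arrays were higher, and here they lay 0.25 apart after scaling. Its difference was −1.40 ± 0.24 (95% interval −2.06 to −0.74), which is 2.64-fold lower, with the lowest adjusted p of all member probes (limma, 0.0531). Under normexp background correction with quantile normalization the probes were at −0.87 and −0.51, and probe 2 passed the threshold with an intensity trend (limma adjusted p = 0.0429). Probe 1 was at −1.08 without Control replicate 1 and at −2.29 without Control replicate 2.

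The α chain of the receptor showed the lowest difference among the bright members. Il2ra probe 1 read 12848 and 12037 on the Control arrays and 2279 and 3668 on the Junbfl/flCd4-Cre arrays. The Control arrays differed by 0.03 after scaling, and the Junbfl/flCd4-Cre arrays by 0.93, with the array numbered 2 nearer the Control level. The difference was −1.67 ± 0.36 (95% interval −2.65 to −0.70), or 3.19-fold lower, with a limma adjusted p of 0.0669. Of all tested probes, 1.1% had a lower difference, and of the probes in the same quintile of brightness 0.625% did. A second probe under this gene name, designed on a cDNA record and lying 44.5 kb away (chr2:11570205-11570264), read 688 and 896 against 199 and 486. Its groups overlapped on the scaled values, and its difference was −0.91 ± 0.57 with a limma adjusted p of 0.297. It was at −0.14 without Junbfl/flCd4-Cre replicate 1 and at −1.67 without replicate 2. The other 9 markers of Treg cells summed to 214 and 182 times the 75th percentile on the Control arrays against 122 and 138 times. Of them 6 had a negative difference, with a median of −1.47, and their part in the Il2ra reading was not tested.

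The β chain was lower on both Junbfl/flCd4-Cre arrays at both of its probes. Il2rb probe 1 (chr15:78311109-78311168) read 3842 and 4008 against 1951 and 1715, a difference of −0.67 ± 0.15 (95% interval −1.09 to −0.25, limma adjusted p = 0.0728). Il2rb probe 2, 1.3 kb away, read 9048 and 8347 against 5366 and 4425, a difference of −0.40 ± 0.15 (limma adjusted p = 0.132). Differences of this size were common among bright probes: in the brightest quintile of tested probes the median was −0.35, and 45.0% of that quintile lay below the second Il2rb probe. Under normexp with quantile normalization the probes were at −0.32 and −0.06.

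The common γ chain was the receptor chain with the difference nearest to 0. Il2rg, read by 1 probe (chrX:98459802-98459860), gave 8757 and 7749 on the Control arrays against 6244 and 5063. After scaling the 4 values lay between 5.65 and 5.86, and the difference was −0.12 ± 0.15 (95% interval −0.54 to 0.30, limma adjusted p = 0.576). The interval leaves room for a change of up to 0.54 downward, and the sign was positive under 4 of the 15 alternatives, the quantile normalizations among them.

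Of the 3 probes of the IL-15 receptor α chain, probes 1 and 2 gave like readings and probe 3 stood apart. Il15ra probe 1, which the files place over a span with an intron, read 21.6 and 20.7 against 22.5 and 20.7, so the signals before scaling were nearly level. Because the Junbfl/flCd4-Cre arrays have lower 75th percentiles, the scaled difference was 0.46 ± 0.15 (limma adjusted p = 0.114), and it read −0.07 when each array was scaled to its median. That setting moves all probes alike, with a median of −0.54 over the tested probes, and relative to it the probe was at 0.47. Il15ra probe 2 read 21.6 and 17.9 against 19.1 and 20.4, a difference of 0.44 ± 0.20 (limma adjusted p = 0.19). It read −0.10 under median scaling and 0.45 relative to the median of that setting. Under normexp with quantile normalization probes 1 and 2 were both at 0.01, and under quantile normalization alone at 0.05 and 0.01. Relative to the medians of those settings they lay between 0.04 and 0.13. The authors' deposited table gave 0.04 for probe 1. Il15ra probe 3, the oligo with the alternating run, read 1999 and 10140 on the Control arrays and 3417 and 29965 on the Junbfl/flCd4-Cre arrays. The array numbered 2 was higher by 2.41 within Control and by 3.37 within Junbfl/flCd4-Cre, and between arrays of the same number Junbfl/flCd4-Cre was higher by 1.11 and by 2.08. Its genotype difference of 1.6 ± 1.45 had a 95% interval from −2.39 to 5.59 (limma adjusted p = 0.444) and was −0.09 without Junbfl/flCd4-Cre replicate 2.

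The same pattern was seen in other probes with that run. Of the tested probes, 111 hold 12 alternating T and G, and 98.2% of them were higher on the arrays numbered 2 in both genotypes, with median gaps of 2.05 within Control and 2.79 within Junbfl/flCd4-Cre. For 63 probes with 12 alternating A and C the gaps ran the other way, with medians of −0.83 and −1.32. Over all tested probes the medians were −0.04 and −0.03, and 26.8% were higher on both arrays numbered 2. Between genotypes the median difference was 1.39 for the T and G probes and 0.8 for the A and C probes, beside −0.01 over all tested probes, with 0.0% of either set called by limma. The arrays numbered 1 lie in row 1 of the slide and those numbered 2 in row 2. The part of slide row or array number in the Il15ra reading was not tested.

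**Figure D2:**
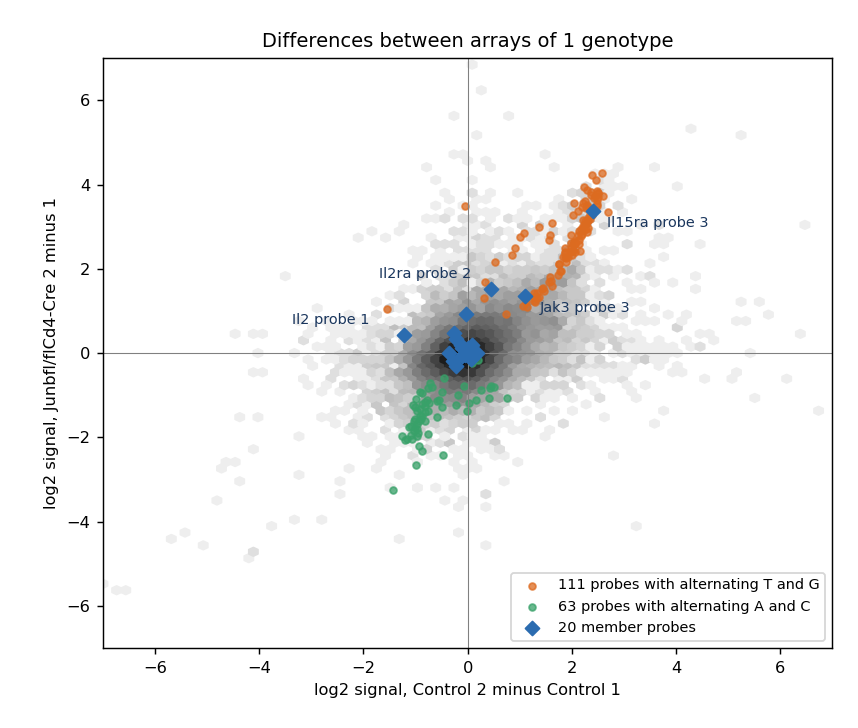
Log2 signal gap between the 2 arrays of a genotype (number 2 minus number 1) for Control on the horizontal and Junbfl/flCd4-Cre on the vertical axis; grey cells count all tested probes on a log scale, coloured circles are probes with an alternating run, and blue diamonds are the 20 member probes. Il15ra probe 3 lies among the T and G probes at 2.41 and 3.37, and Jak3 probe 3 lies at 1.1 and 1.35.

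Neither receptor-bound kinase passed the test. Jak1 (chr4:100825094-100825153) read 3902 and 3929 against 4153 and 3186, a difference of 0.32 ± 0.16 (95% interval −0.11 to 0.75, limma adjusted p = 0.203), which read −0.21 under median scaling and 0.34 relative to its median. Jak3 probe 1 (chr8:74214085-74214144) read 521 and 566 against 425 and 361, a difference of −0.04 ± 0.16 (limma adjusted p = 0.864). The files list a transcript of the neighbouring gene Insl3 for this probe as well, so its signal may not be Jak3 alone.

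Jak3 probe 2, shown above, read 247 and 203 against 157 and 107, a difference of −0.36 ± 0.20 (limma adjusted p = 0.246). Jak3 probe 3, designed on a cDNA record (chr8:74204097-74204161), read 258 and 529 against 508 and 1096. It went the other way, at 1.45 ± 0.63 (95% interval −0.27 to 3.16, limma adjusted p = 0.17), and within each genotype the array numbered 2 was higher, by 1.1 and by 1.35. Between arrays of the same number the Junbfl/flCd4-Cre array was higher by 1.32 and by 1.57. The difference was 0.77 without Junbfl/flCd4-Cre replicate 2 and 2.12 without replicate 1. Over the 10 kb that the Jak3 probes cover, their differences thus ranged over 1.8 on the log2 scale.

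The 2 Stat5a probes gave opposite signs. Stat5a probe 1 (chr11:100746373-100746432) read 2939 and 2610 against 2767 and 2526, a difference of 0.36 ± 0.16 (limma adjusted p = 0.169), which read −0.17 under median scaling and 0.37 relative to its median. Stat5a probe 2, 1.1 kb away, read 726 and 737 against 414 and 397, a difference of −0.42 ± 0.16 (limma adjusted p = 0.143). Both sets of arrays were tight at both probes, and the 2 differences lie 0.78 apart.

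Stat5b did not split in this way, since its bright probe showed almost no difference. Its probe on a cDNA record (chr11:100682720-100682779) read 81.3 and 63.8 against 88.7 and 65.4, a difference of 0.51 ± 0.19 (limma adjusted p = 0.135) that read −0.02 under median scaling and 0.52 relative to its median. The bright Stat5b probe (chr11:100642045-100642104), 40.7 kb away, read 3980 and 4026 against 3344 and 2590. Its difference of −0.01 ± 0.16 (95% interval −0.44 to 0.41, limma adjusted p = 0.955) had no stable sign over the alternatives. Under the quantile normalizations and in the authors' deposited table both Stat5b probes were positive. Among the 7130 genes with at least 2 tested probes, 37.5% had probes of both signs, and the median range within a gene was 0.41.

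The phosphatase was lower at both probes. Ptpn2 probe 1 read 2149 and 1873 on the Control arrays against 1160 and 1127, a difference of −0.38 ± 0.17 (95% interval −0.85 to 0.08, limma adjusted p = 0.177). Ptpn2 probe 2 read 196 and 147 against 97.7 and 82.9, a difference of −0.48 ± 0.19 (limma adjusted p = 0.149). The groups did not overlap at either probe, as for 72.2% of all tested probes. The first value lies close to the −0.35 median of the brightest quintile of probes. Under normexp with quantile normalization the Ptpn2 probes were at −0.11 and −0.32, and under quantile normalization alone at −0.09 and −0.48.

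**Figure D3:**
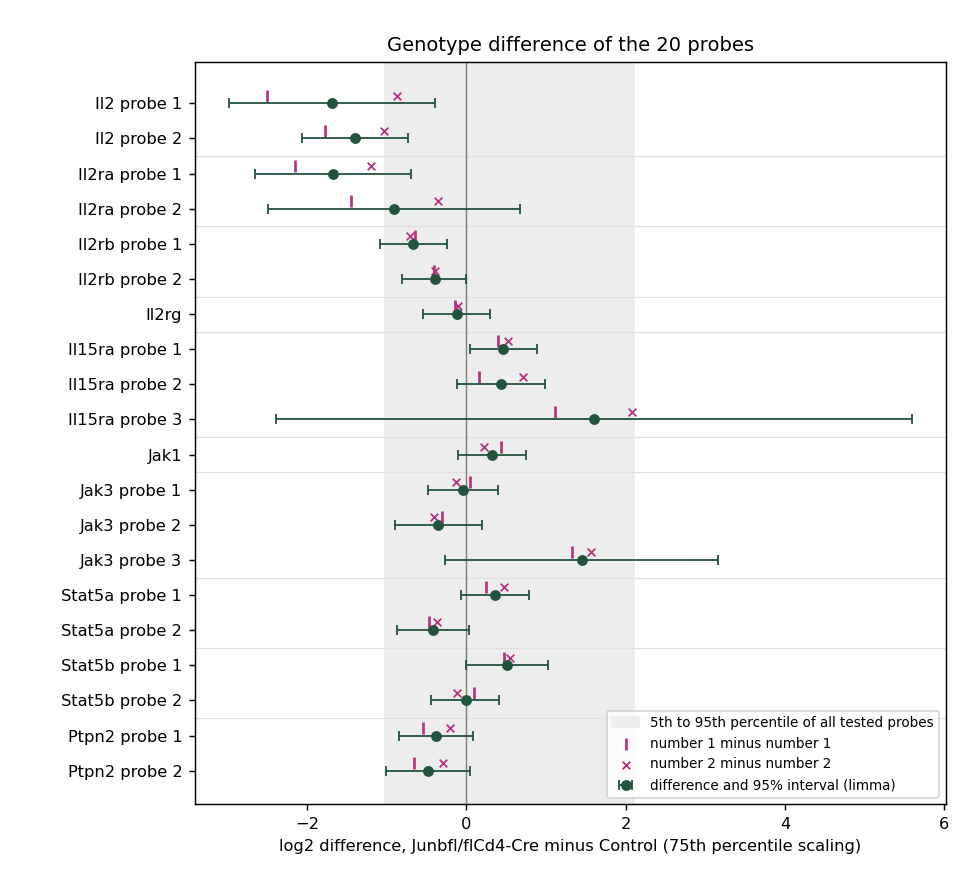
Log2 difference of each member probe (Junbfl/flCd4-Cre minus Control, scaled to the 75th percentile) with its 95% interval from limma; pink marks give the difference within arrays of the same number, and the grey band runs from the 5th to the 95th percentile of all tested probes, −1.02 to 2.10. Both Il2 probes and Il2ra probe 1 lie left of the band.

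Differences on these arrays moved with brightness, which bears on every member. From the dimmest to the brightest quintile of tested probes the median difference was 0.68, 0.27, 0.01, −0.23 and −0.35, and 9 of the 20 member probes fell in the brightest quintile. Within their own quintiles, 1.03% and 1.80% of probes lay below the Il2 probes, 20.2% below Il2rb probe 1, 70.7% below Il2rg, 88.3% below Jak1, 77.4% below the bright Stat5b probe and 47.0% below Ptpn2 probe 1. Median scaling put the median of all tested probes at −0.54, and scaling to probes detected on all arrays put it at 0.20. Both scalings add 1 constant to all probes of an array, so the place of a probe relative to the median stays as it is.

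**Figure D4:**
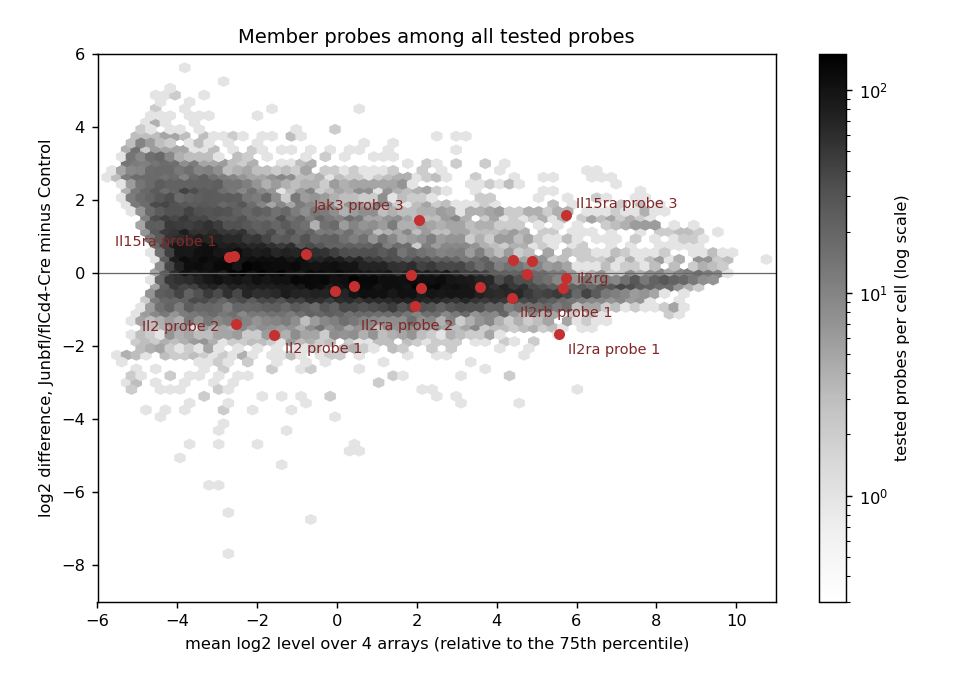
Mean scaled log2 level over the 4 arrays (horizontal) against the log2 difference, Junbfl/flCd4-Cre minus Control (vertical), for all 33606 tested probes as grey cells counted on a log scale and the 20 member probes in red. The mass of probes falls from left to right, and Il2ra probe 1 lies at −1.67 among bright probes whose median is −0.35.

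In the authors' deposited table, which gives a log2 difference, a p and an adjusted p per accession, none of the 16 rows for member accessions had an adjusted p under 0.05, beside 2.41% of 26594 rows (0.651% lower). An unadjusted p under 0.05 was given for 4 of those 16 rows in the authors' deposited table, beside 32.8% of all rows. The authors' deposited table gave Il2ra −1.40 (the authors' adjusted p = 0.0844) and, for its cDNA record, −0.66 (0.431). The authors' deposited table also gave Il2, as 1 row for both probes, −1.1 (0.073), Il2rb −0.33 (0.206) and −0.08 (0.648), and Jak1 0.62 (0.0834). Il2rg had the opposite sign in the authors' deposited table, at 0.18 (0.321).

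Among genes with a plain symbol, each read by its brightest tested probe, Gtse1, Pdia2 and Nav1 lay nearest to Il2ra probe 1 over the 4 arrays. Each profile was centred on its own mean, and the root mean square distances were 0.0411, 0.0525 and 0.104 on the log2 scale. Gtse1 read 379 and 377 against 71.7 and 109, a difference of −1.66 ± 0.33 (limma adjusted p = 0.063). Pdia2 was at −1.77 and Nav1 at −1.74, and with the mean of all its probes Nav1 was at 0.47. Likeness over 4 arrays is a description of these arrays only.

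Other genes of the pathway were read through lists, each gene by its brightest probe. Of 110 list genes 103 were tested, and 13 were called, 6 higher and 7 lower (12.6%, beside 8.06% over the brightest probes of all genes, of which 6.79% higher and 1.27% lower). The median was −0.26. With any 1 array left out no probe on the array was called by limma, so those fits say nothing of these genes in particular. The 9 called genes that the rule names kept their sign then, as Il9 did at −7.94 to −7.30 and Pik3ca at 1.68 to 2.02.

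The STAT5 target list, chosen with earlier results of these data known, held most of the calls. Of 25 tested genes 4 rose and 5 fell (36.0%, beside 8.06% over the brightest probes of all genes), and the median was −0.69. A share in a list chosen that way is no test of STAT5 output. Socs2, a STAT5-induced inhibitor of cytokine signalling, read 2314 and 1921 on the Control arrays against 122 and 246 at its brightest probe. That probe's difference was −3.17 ± 0.47 (limma adjusted p = 0.0431). Other Socs2 probes were at −3.09, which was called, and at −1.66 and 0.06, which were not. Lta, the cytokine lymphotoxin α, fell by 2.75 (7859 and 6781 against 604 and 1070, limma adjusted p = 0.0429). Osm, encoding oncostatin M, fell by 1.66 at its brightest probe (limma adjusted p = 0.0356). A dimmer Osm probe was at −1.18 and was not called (limma adjusted p = 0.115). Socs2, Lta and Osm were not called under the quantile normalizations or in the authors' deposited table.

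The list moved in both directions. Ikzf2, encoding the Treg factor Helios, read 69.9 and 26.7 against 801 and 716, a rise of 4.56 ± 0.49 (limma adjusted p = 0.0306). Prdm1, encoding the repressor Blimp-1, rose by 2.80, from 14.2 and 11.9 to 62.7 and 71.7 (limma adjusted p = 0.0265). Under normexp with quantile normalization Prdm1 was at 0.94 and was not called (limma adjusted p = 0.0616). It was called under quantile normalization alone, at 2.49, and in the authors' deposited table, at 1.26. The other called genes were Myc at −1.27, Ctla4 at −1.47, Il1rl1 at 1.87 and Tnfrsf9 at 1.21, named after their values were seen. Cish, the classical STAT5 target, read 9359 and 7123 against 1096 and 1691, a difference of −2.15 ± 0.36 that missed the threshold (limma adjusted p = 0.0501). Foxp3 read 1287 and 1301 against 298 and 584, a difference of −1.20 ± 0.45 (limma adjusted p = 0.135). The array numbered 2 was nearer the Control level, as for Il2ra and for 43.4% of all tested probes with a difference under −1. Foxp3 was at −0.6 without Junbfl/flCd4-Cre replicate 1 and at −1.81 without replicate 2.

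Among cytokines and receptors that share the γ chain, 1 of 6 tested genes was called. Il9, a growth factor of T cells and mast cells, read 373 and 277 on the Control arrays and was not well above background on either Junbfl/flCd4-Cre array (1.05 and 1.39). On the scaled signals it was at least 47.3-fold lower (limma adjusted p = 0.0265). That bound is set against the lowest signal well above background on each dim array. The size depended on the processing. The Il9 difference was −2.52 under normexp with quantile normalization and −3.75 in the authors' deposited table, and Il9 was called in both. Il7r, the IL-7 receptor α chain, read 1081 and 1288 against 2542 and 1711 (1.25 ± 0.22, limma adjusted p = 0.0537), and Il4ra, which pairs with the γ chain for IL-4, read 992 and 901 against 284 and 331 (−1.20 ± 0.22, limma adjusted p = 0.0571). Both missed the threshold, in opposite directions. Il4, Il7, Il15, Tslp and Il9r were not tested, as they were too dim.

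None of 7 other JAK and STAT genes was called by limma, 0 of them at an unadjusted p under 0.05, with a median of −0.05. Stat4 was at 0.56 (limma adjusted p = 0.15) and Stat3 at −0.25 (0.274), the latter lying between 0.01 and 0.07 under the quantile normalizations and in the authors' deposited table.

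In the adaptor, PI3K, mTOR and Ras branch 1 of 23 tested genes was called. Pik3ca, a catalytic subunit of PI3-kinase, read 841 and 939 against 2904 and 1946 and rose by 1.85 ± 0.20 (limma adjusted p = 0.0314). The list's median was −0.30, and 18 of its 23 genes had a negative difference. Of 18 negative regulators only Socs2 was called, and the median was −0.11. The related inhibitors Socs1 and Socs3 were at −1.43 and −1.52, neither of them called.

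Of 28 factors known to act at Il2 and Il2ra, 1 rose and 1 fell (7.14%), with a median of −0.25. Nfatc2, a calcium-activated factor of the Il2 promoter, read 3957 and 3695 against 1496 and 1095 at its brightest probe. That probe fell by 1.15 (limma adjusted p = 0.0412). Other Nfatc2 probes were at −0.54 and 0.08, neither called (limma adjusted p = 0.145 and 0.884). Nfatc2 was not called under the quantile normalizations or in the authors' deposited table. Fos, an AP-1 partner of Jun proteins, rose by 1.23, from 72.3 and 88.5 to 146 and 133 (limma adjusted p = 0.0477). Fos was not called under normexp with quantile normalization, quantile normalization or median scaling (limma adjusted p = 0.0538, 0.0611 and 0.0523). It was called in the authors' deposited table. Irf4, a partner of AP-1 at T-cell enhancers, was at −1.03 (limma adjusted p = 0.0553) and was not called.

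**Figure D5:**
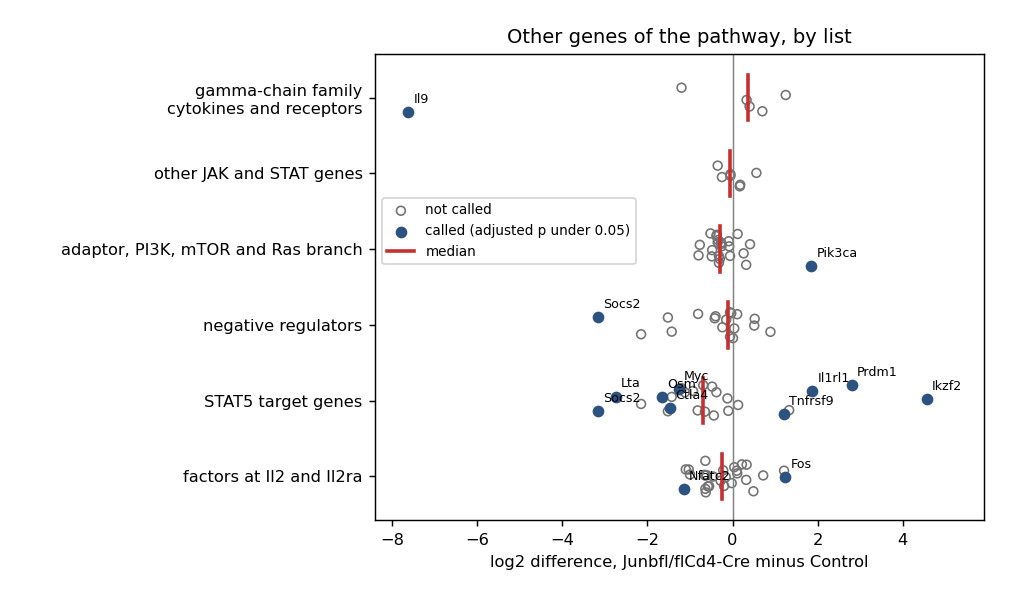
Log2 difference (Junbfl/flCd4-Cre minus Control) of the tested genes of 6 pathway lists, each gene by its brightest probe; filled points passed an adjusted p of 0.05, open points did not, and red bars are list medians. Socs2 appears in both lists that hold it, and the point of Il9 is a fitted value for a gene below background on both Junbfl/flCd4-Cre arrays.

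The start regions of the ligand and the α chain are shown because these genes gave the lowest differences and are textbook targets of AP-1, NFAT and STAT5. RefSeq promoters on build GRCm38.p6 were matched for 8 of the 10 genes. In the 250 bases before each start, on both strands, the AP-1 motif TGANTCA, the STAT5 motif TTCNNNGAA and the NFAT core GGAAA were searched, which occur in 6.75%, 7.02% and 55.6% of 32851 promoters. Capitals mark the NFAT core or its complement.
Il2 (chr3:37125955-37126204, minus strand): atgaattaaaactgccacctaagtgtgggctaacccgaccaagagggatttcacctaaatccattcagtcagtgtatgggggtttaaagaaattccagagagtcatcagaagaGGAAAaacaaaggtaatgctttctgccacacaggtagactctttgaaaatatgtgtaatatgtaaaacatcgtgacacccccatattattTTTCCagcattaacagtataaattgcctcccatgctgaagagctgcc
Il2ra (chr2:11642542-11642791, plus strand): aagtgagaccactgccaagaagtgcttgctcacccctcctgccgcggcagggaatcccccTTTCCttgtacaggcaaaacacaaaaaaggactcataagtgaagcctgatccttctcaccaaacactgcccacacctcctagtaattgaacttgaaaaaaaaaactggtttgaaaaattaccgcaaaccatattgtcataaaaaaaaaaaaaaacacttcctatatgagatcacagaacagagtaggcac

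The Il2 window held the NFAT letters at −137 and −47 from the start, and the Il2ra window at −190. Neither window held the AP-1 or the STAT5 letters as spelled. Among the members' start regions, 1 of those of Il15ra held the AP-1 letters, at −30. A match of letters is a description of the sequence, and the arrays carry no measure of binding.

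The extraction label names colon, while the other labels name cultured cells: all 14 T-cell markers and all 10 Treg markers were well above background on every array, and of 14 colon epithelium markers 4 to 7 were, with Krt19, Krt20, Cdx1, Vil1, Muc2 and Cdh1 below on all 4. The colon transporter gene Slc26a3 read 6.14 and 6.00 against 47.9 and 32.6, at least 8.44-fold higher on the Junbfl/flCd4-Cre arrays (limma adjusted p = 0.0265). Lgr5 read 3.39 and 1.49 against 27.0 and 9.75, at least 3.75-fold higher, and was not called (limma adjusted p = 0.0569).

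T-cell markers summed to 1270 and 1260 times the 75th percentile on Control against 1170 and 1050 times, and Cd2 and Thy1 of that list fell, by 1.33 and 0.98 (limma adjusted p = 0.0495 and 0.0452). The 10 Treg markers, Il2ra included, summed to 299 and 265 against 141 and 174 times (median difference −1.48), and of them Ikzf2 and Itgae rose and Ctla4 and Izumo1r fell. Markers of B cells were well above background for 6 to 8 of 8 genes, with summed signals of 1.72 to 4.0 times the 75th percentile on Control and 5.63 to 8.23 times on Junbfl/flCd4-Cre arrays, and 6 to 12 of 16 myeloid genes were, with sums of 263 to 269 and 430 to 460 times, Adgre1, Fcgr1, Ly6g and Clec9a being below on all 4. Most of the myeloid sum was 1 probe, Siglech (36570 and 35404 against 47463 and 40066), and without it the sums were 26.8 and 17.9 against 62.5 and 32.8 times. Of the stroma sums, 65.7 and 43.1 against 7.43 and 10 times, most was Vim, which T cells also express; without it they were 0.644 and 0.616 against 1.34 and 0.996 times. Red cell markers summed to 14.2 and 25.7 times on the arrays numbered 1 and to 0.185 and 0.554 times on those numbered 2. Of the remaining lists, 3 to 5 of 8 markers of CD8 and NK cells, 3 to 6 of 10 of stroma and 1 to 3 of 4 of red cells were above. Their part in the results was not tested, and in bulk RNA fewer cells of a type and less RNA per cell cannot be told apart.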

How the data were processed

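RNA was labelled with Cy3 and hybridised to 1-colour Agilent arrays, 4 in all on 1 slide and 1 scan, 2 per genotype. Per the submitters' processing notes, signals were extracted with Agilent Feature Extraction 11.5.1.1. The deposited scanner files give processed intensity per spot, background-corrected per the file headers, with a flag for signals well above background. The authors also deposited a table of log2 signals, log2 differences, p-values and adjusted p-values per accession; its normalization and test are not given in the sources used here. Members and lists were chosen with earlier results of these data known.

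Control spots and outlier-flagged probes were left out (295 probes). Of each array 59.35% to 66.32% of spots were well above background, and none was saturated; the number of arrays limits the precision. Log2 intensity minus the array's 75th percentile (101 to 151) was fitted with limma 3.58.1 in R 4.3.3 (lmFit and eBayes) on the 33606 probes for which 1 genotype or the other had both of its arrays well above background. P-values from the scanner files were computed here, while those of the deposited table are the authors'. The former were adjusted by Benjamini-Hochberg over all tested probes; a probe is called at an adjusted p under 0.05. The pipeline was tested on simulated data. Gene names follow RefSeq accessions where they match. Named genes are the members, Junb, Foxp3 and up to 4 called genes of each list by smallest p (otherwise 2 as values). The 3 genes nearest to Il2ra among those with a plain symbol are named as well. Alternatives changed background correction (normexp, offset 50), scaling, filter, probe unit, replicate block, moderation, source of values and arrays left out. A gene below background on both arrays of a genotype has a fold bound.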

Additional observations from a re-analysis of the deposited data

How the results depend on the processing

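Each result was recomputed under 15 alternatives. Il2ra probe 1 kept a negative difference in all that gave it a value, from −2.21 to −1.21, with adjusted p from 0.032 to 0.223. Il2 probe 1 lay between −2.29 and −0.87, Il2 probe 2 between −1.93 and −0.51, Il2rb probe 1 between −1.20 and −0.32 and Il2rb probe 2 between −0.94 and −0.06, the value nearest 0 of each under normexp with quantile normalization. The number of probes called, 2277 with 81.6% higher, became 338 under normexp with quantile normalization (73.7% higher), 650 under quantile normalization (72.8%), 12972 under median scaling (18.5%), 1377 with detection on all 4 arrays, 5239 with an intensity trend (53.3%) and 641 in the authors' deposited table; without a filter 0 were called by limma (12028 at an unadjusted p under 0.05). Leaving out any 1 array gave 0 calls, from 0 to 0, with 7315 to 11361 probes at an unadjusted p under 0.05; the lone array is then assumed to vary like the other genotype.

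Called member genes, by the brightest probe, went from 0 to 4 under median scaling (Il2, Il2ra, Il2rb and Ptpn2) and to 1 with an intensity trend (Il2ra). By any probe, 8 of 20 were called under median scaling, beside 12972 of all 33606 tested probes. They were both probes of Il2, Il2rb and Ptpn2, Il2ra probe 1 and Stat5a probe 2. With an intensity trend 3 of 20 were called, beside 5239 of all 33606 tested probes. These 3 had limma adjusted p = 0.0429 for Il2 probe 2, 0.0414 for Il2ra probe 1 and 0.0388 for Il2rb probe 1. None of these counts is read as a result about the members. Called pathway genes, 13 as reported, became 6 under normexp with quantile normalization, 5 under quantile normalization, 44 under median scaling, 27 with an intensity trend, and 0 without a filter or with any 1 array left out, settings under which no probe on the array was called by limma.

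With the replicate number as a block, 8522 probes, 3 member genes (Il2ra, Il15ra and Jak3, the last 2 by their brightest probes) and 27 pathway genes were called. By any probe 4 of 20 members were called, beside the 8522 of all 33606 tested probes. These 4 had limma adjusted p = 0.0326 for Il2 probe 2, 0.032 for Il2ra probe 1, 0.0353 for Il15ra probe 3 and 0.0163 for Jak3 probe 3. Arrays of the same number deviated together (correlation 0.45 over tested probes), but with 2 pairs and no label tying them the numbers do not establish a pairing. Slide and scan could not serve as a block, as all 4 arrays share them. The numbers coincide with slide rows 1 and 2, so the block by number is also a block by row.

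Signs turned as follows, and beyond the median shift given below the cause was not tested. Il2rg became 0.19 and 0.21 under normexp and quantile normalization, 0.09 with the percentile of detected probes and 0.18 in the authors' deposited table. Jak3 probe 1 became 0.18, 0.17, 0.17 and 0.20 under the same settings, and ranged from −0.13 to 0.05 with 1 array left out. The bright Stat5b probe became 0.31, 0.31, 0.20 and 0.34, with −0.08 to 0.05. Under median scaling Il15ra probes 1 and 2 were at −0.07 and −0.10 and Jak1 at −0.21. Stat5a probe 1 was then at −0.17 and the dim Stat5b probe at −0.02. Median scaling shifts all probes alike (median −0.54), and relative to that these were at 0.47, 0.45, 0.34, 0.37 and 0.52. Under normexp with quantile normalization, which is not such a shift, Il15ra probes 1 and 2 were both at 0.01. Stat3 was at 0.04, 0.07 and, in the authors' deposited table, 0.01, and Nav1 at 0.47 over all its probes. With 1 array left out, Il15ra probe 3 ranged from −0.09 to 3.29 and the bright Junb probe from −2.85 to 0.65.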

Other observations

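The inhibitors of cytokine signalling Socs2 (122 and 246 on the Junbfl/flCd4-Cre arrays), Socs1 (568 and 873), Socs3 (156 and 266) and Cish (1096 and 1691) had the higher signal on the array numbered 2, as Foxp3 did (298 and 584). These are values of 2 arrays, with no test. Of the 1769 tested probes with a difference under −1, 43.4% were nearer the Control level on the Junbfl/flCd4-Cre array numbered 2.

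A pair of receptor genes on the STAT5 list stood on the higher side, Il1rl1, the receptor of IL-33, with 14.9 and 19.0 on Control against 61.6 and 33.8 on Junbfl/flCd4-Cre arrays, and Tnfrsf9 (4-1BB) with 2413 and 1811 against 3733 and 3450. The leukaemia inhibitory factor gene Lif read 31.4 and 37.7 against 57.1 and 72.7 and was not called (limma adjusted p = 0.0655).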
